A study of Homo sapiens with 8 samples.

Results

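The 6 genes of type IV collagen, COL4A1 to COL4A6, were measured by RNA-seq after transfection of lung cancer lines with miR-29a-3p or a control microRNA. They were chosen by gene name, and all 6 are among the 31461 genes listed for either line. The 4 groups were A549 with miR-29a-3p, A549 control, H1299 with miR-29a-3p and H1299 control, with 2 libraries each. The miR-29a-3p groups are labelled as overexpressing it, every group is labelled wild type, and the sources name neither a dose nor a time after transfection. A549 is an established lung adenocarcinoma line and H1299 an established large cell lung carcinoma line. The stated purpose was to look for possible miR-29a-3p targets.

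Type IV collagen is the sheet-forming collagen of basement membranes, the thin matrix under epithelia and around vessels. Its chains wind into triple helices that join end to end into a network, which binds laminin networks through nidogen and perlecan. The genes lie in head-to-head pairs, COL4A1 with COL4A2, COL4A3 with COL4A4 and COL4A5 with COL4A6, and the members of a pair are read in opposite directions from neighbouring starts. COL4A1 and COL4A2 make the network found in nearly all basement membranes. COL4A3, COL4A4 and COL4A5 make the network of the kidney glomerulus and the lung alveolus, and COL4A5 and COL4A6 one found under some epithelia and around smooth muscle. MicroRNAs of the miR-29 family pair with sites in 3′ untranslated regions (UTRs) and are known to repress many collagen genes.

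Line markers did not match the labels. CDKN2A, a cell cycle inhibitor deleted in A549, was at 24.3 FPKM in the controls labelled A549 and at 0.0818 FPKM in those labelled H1299 (means, n = 2 each). FPKM is the number of fragments scaled by transcript length and library size. Of 10 A549 markers, 7 had a higher mean in the H1299-labelled controls. The lines are therefore named as the libraries were labelled, and any direction between lines holds for the labels only. The libraries held an estimated 12221310 to 15614821 fragments. Of 10 fibroblast markers, another possible source of basement membrane collagen, 2 reached 1 FPKM with miR-29a-3p and 1 in controls among H1299-labelled libraries, and 0 in either A549-labelled group. Their sum was 4.26 to 4.27 FPKM with miR-29a-3p and 2.56 to 2.64 FPKM in controls labelled H1299, and 0.366 to 0.404 FPKM with miR-29a-3p and 0.413 to 0.585 FPKM in controls labelled A549. In H1299-labelled libraries LUM averaged 1.66 FPKM with miR-29a-3p and 0.878 FPKM in controls, COL1A1 1.49 and 1.26 FPKM, THY1 0.492 and 0.0762 FPKM, and DCN 0.283 and 0.108 FPKM (n = 2 each). FAP averaged 0.273 ± 0.078 FPKM with miR-29a-3p and 0.253 ± 0.0031 FPKM in controls there (SD, n = 2 each). COL1A2, COL3A1, PDGFRA and PDGFRB were each under 0.1 FPKM in every library, and DPT was not listed. Of 8 endothelial markers, none reached 1 FPKM, and their sum was 0.309 to 0.348 FPKM with miR-29a-3p and 0.208 to 0.305 FPKM in controls labelled H1299, and 0.361 to 0.363 and 0.499 to 0.525 FPKM with miR-29a-3p and in controls labelled A549. These sums move with some results below, and their part in them was not tested.

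The mature strand of miR-29a-3p (RefSeq, GRCh38.p14, chr7:130876748-130876769, minus strand) is shown first because every site below is read against it. Its seed, bases 2 to 8 from the 5′ end, is in capitals.
hsa-miR-29a-3p: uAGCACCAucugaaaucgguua

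The 3′ UTR of each chain was searched for the match to that seed, TGGTGCT (a 7mer-m8 site), or the same letters followed by A (an 8mer site). The transcript with the longest coding sequence in GENCODE release 29 was used for each gene. All 6 chains held at least 1 such site, and there were 9 sites in all, 4 of them 8mers. Among the 11632 tested genes with an annotated 3′ UTR, 13.8% held a site of either kind, and 2.2% held more than 1. Those shares were not matched for 3′ UTR length. A match is a description of the letters and does not show that the site is used. The sites of COL4A1 and COL4A2, which fell in H1299-labelled libraries, and of COL4A5 and COL4A6, which rose there, are printed as RNA-sense DNA, with the match in capitals.
COL4A1, 8mer, chr13:110150316-110150345, minus strand: aatgtcacaacaTGGTGCTActtcttcttc
COL4A2, 7mer-m8, chr13:110512207-110512236, plus strand: gaagggccatttTGGTGCTtattcttaact
COL4A5, 8mer, chrX:108696472-108696501, plus strand: tgctgccgtcaaTGGTGCTActatatatga
COL4A6, 8mer, chrX:108156761-108156790, minus strand: tttctgtcaagcTGGTGCTActgtttgatt

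The sites of COL4A1 and COL4A2 began 30 and 28 bases after the stop codon, in 3′ UTRs of 1400 and 1018 bases. Those of COL4A5 and COL4A6 began 106 and 222 bases after it, in 3′ UTRs of 1163 and 1392 bases. COL4A3 held a 7mer-m8 at 1673 and an 8mer at 2299 bases, and COL4A4 held 3 7mer-m8 sites, at 82, 3654 and 4401 bases. Their 3′ UTRs were the longest of the chains, at 2922 bases for COL4A3 and 4614 for COL4A4. Sites of both genes are shown because that pair had more than 1 site per gene.
COL4A3, 7mer-m8, chr2:227313531-227313560, plus strand: aggtggagttggTGGTGCTgatatttaaat
COL4A3, 8mer, chr2:227314157-227314186, plus strand: aaagccctagacTGGTGCTAatgtcaaacc
COL4A4, 7mer-m8 nearest the stop codon, chr2:227007226-227007255, minus strand: taagagatgtcaTGGTGCTcattttggact

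**Figure D1:**
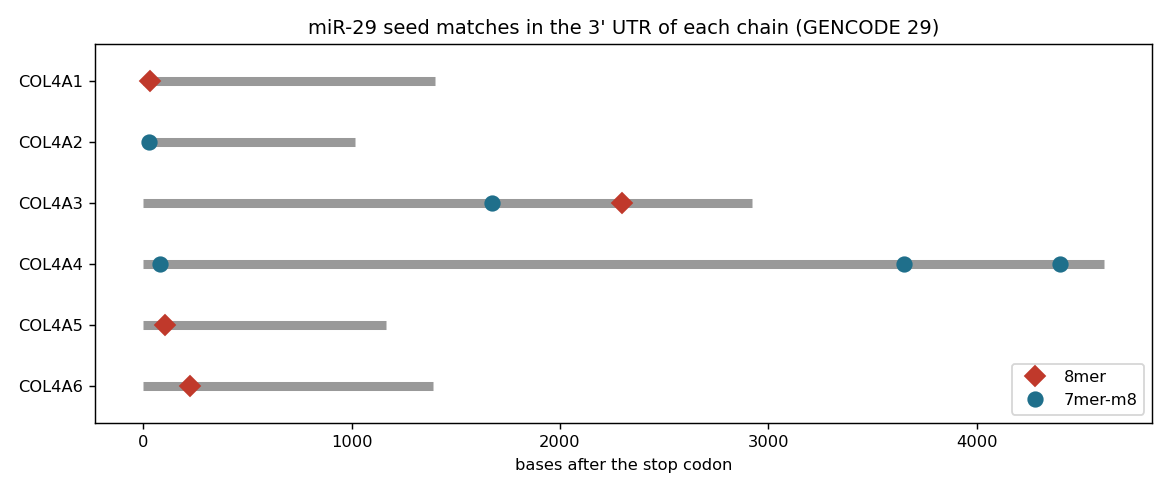
Position of miR-29 seed matches in the 3′ UTR of each chain. The x axis is the number of bases after the stop codon, grey bars are the 3′ UTRs of the transcripts used, diamonds are 8mers and circles 7mer-m8 sites. COL4A1, COL4A2, COL4A5 and COL4A6 each have 1 match, within 222 bases of the stop codon, and COL4A4 has 3, at 82, 3654 and 4401 bases.

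In H1299-labelled libraries, the COL4A1/COL4A2 and COL4A3/COL4A4 pairs were lower after miR-29a-3p and the COL4A5/COL4A6 pair was higher. COL4A1 (ENSG00000187498, chromosome 13, 110148963 to 110307233 on GRCh38, minus strand), the most widely used chain, was at 13.9 and 14.0 FPKM with miR-29a-3p and at 33.8 and 33.5 FPKM in controls. Both treated libraries lay under both controls, at 41.6% of their mean. COL4A2 (ENSG00000134871, chromosome 13, 110305812 to 110513209, plus strand), its partner chain, was at 20.2 and 19.2 FPKM with miR-29a-3p and at 60.2 and 60.8 FPKM in controls. Its groups did not overlap either, and the treated mean was 32.6% of the control mean.

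By limma on log2(FPKM + 1), COL4A1 fell by 1.21 ± 0.054 on the log2 scale in H1299-labelled libraries (SE, adjusted p = 2.1e-05). COL4A2 fell by 1.57 ± 0.064 (SE, adjusted p = 1.6e-05). Of the 6 chains, 4 were called lower and 2 higher at an adjusted p under 0.05, where 50.0% of the 14635 tested genes were called, 24.8% lower and 25.1% higher. The median log2 fold change was -0.69 over the chains and 0.00 over all tested genes, and with a pseudocount of 0.1, -1.30 and 0.00. The -0.69 lies between the values of COL4A3 (-0.63) and COL4A4 (-0.75), which reached 1 FPKM only in these H1299-labelled controls. Both could be tested only because they are high there, and the median does not describe COL4A5 and COL4A6, which rose. In all 6, treated and control libraries did not overlap, as in 76.0% of tested genes. In bulk RNA, fewer cells that make a chain and less of its RNA per cell cannot be told apart.

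COL4A3 (ENSG00000169031, chromosome 2, 227164565 to 227314792, plus strand), a chain of the alveolar and glomerular network, was at 0.446 and 0.367 FPKM with miR-29a-3p and at 1.35 and 1.01 FPKM in controls. COL4A4 (ENSG00000081052, chromosome 2, 227002711 to 227164453, minus strand), its partner, was at 0.592 and 0.590 FPKM with miR-29a-3p and at 1.79 and 1.55 FPKM in controls. Both were low throughout, and the treated libraries lay under the controls, at 34.4% and 35.4% of the control mean for COL4A3 and COL4A4. COL4A3 fell by 0.63 ± 0.092 (SE, limma adjusted p = 0.0017) and COL4A4 by 0.75 ± 0.077 (SE, adjusted p = 0.0004) on the log2(FPKM + 1) scale, where folds of genes this low are compressed. Both passed the filter on low values (at least 1 FPKM in at least 2 libraries) only through these controls, where they are high. With no filter their adjusted p was 0.0046 and 0.0012. The COL4A3 values rest on an estimated 63 and 52 fragments with miR-29a-3p and 192 and 113 in controls. AC097662.1, an antisense gene at 0.101 to 0.472 FPKM, shares 120 exon bases with COL4A3, and without a stated strand setting fragments of the 2 cannot be told apart there.

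COL4A5 (ENSG00000188153, chromosome X, 108439844 to 108697545, plus strand), the chain shared by the alveolar and the epithelial networks, was at 18.3 FPKM in both H1299-labelled miR-29a-3p libraries and at 14.6 and 14.0 FPKM in controls. COL4A6 (ENSG00000197565, chromosome X, 108155607 to 108439497, minus strand), its partner, was at 31.6 and 32.3 FPKM with miR-29a-3p and at 24.3 and 24.1 FPKM in controls. Treated libraries lay above controls for both genes. COL4A5 rose by 0.34 ± 0.049 (SE, limma adjusted p = 0.0017) and COL4A6 by 0.38 ± 0.062 (SE, adjusted p = 0.0027) on the log2 scale. The treated means were 128% and 132% of the control means for COL4A5 and COL4A6. Each of the pair carries an 8mer site in its 3′ UTR, as COL4A1 does.

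**Figure D2:**
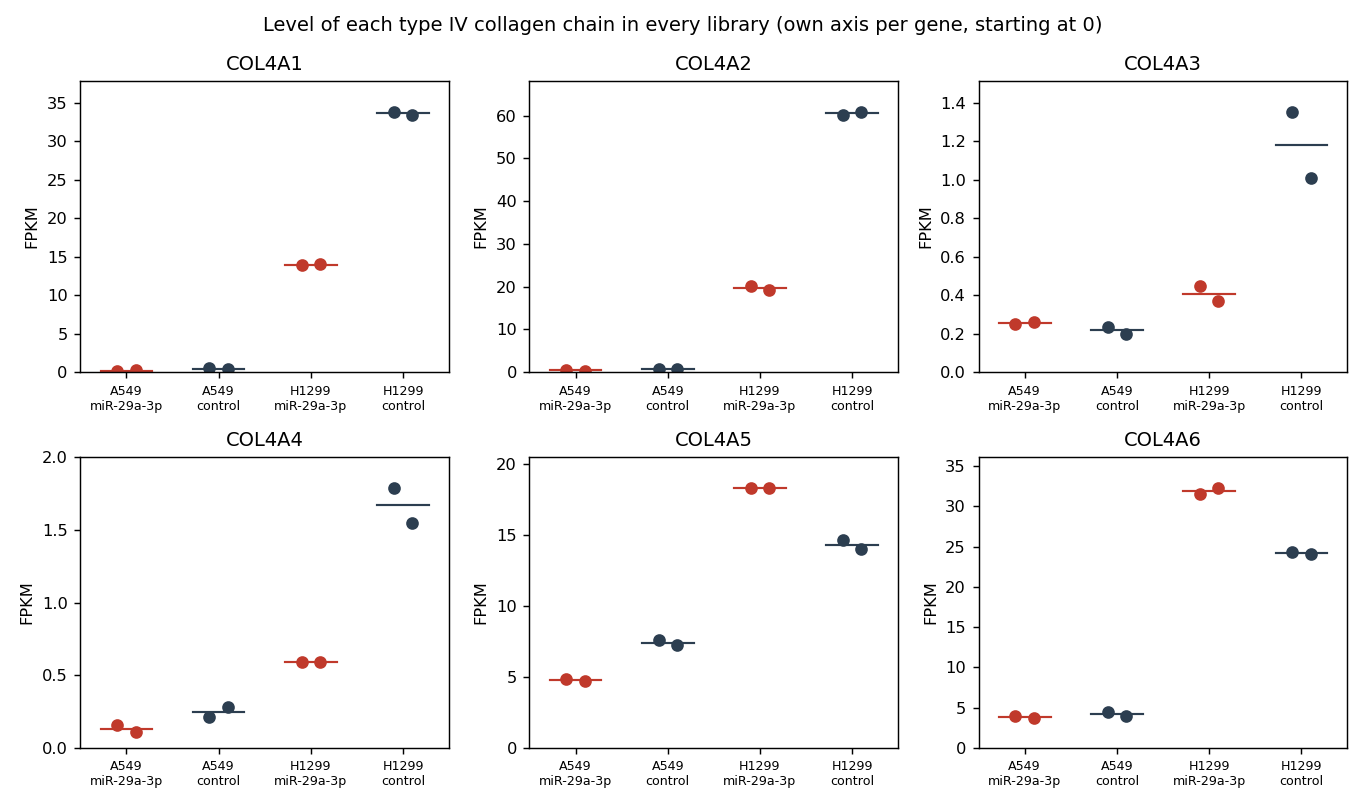
FPKM of each chain in every library. Each panel is 1 gene with its own y axis from 0, points are libraries and lines are group means (n = 2), with miR-29a-3p in red and control in dark blue. In H1299-labelled libraries COL4A1 to COL4A4 lie lower with miR-29a-3p and COL4A5 and COL4A6 lie higher.

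In A549-labelled libraries, COL4A5 was lower after miR-29a-3p, and the change of COL4A6 did not pass the test. COL4A5 was at 4.81 and 4.69 FPKM with miR-29a-3p and at 7.58 and 7.21 FPKM in controls. The treated libraries lay under the controls, at 64.2% of their mean, and COL4A5 fell by 0.55 ± 0.049 on the log2 scale (SE, limma adjusted p = 0.0016). COL4A6 was at 3.98 and 3.69 FPKM with miR-29a-3p and at 4.42 and 3.94 FPKM in controls. Its groups overlapped, with a log2 fold change of -0.10, a 95% confidence interval of -0.25 to 0.05 and an adjusted p of 0.33.

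COL4A1 and COL4A2 were near the bottom of the range in A549-labelled libraries. COL4A1 was at 0.163 and 0.207 FPKM with miR-29a-3p and at 0.479 and 0.408 FPKM in controls. These values rest on an estimated 36 and 38 fragments with miR-29a-3p and 90 and 77 in controls. COL4A2 was at 0.454 and 0.329 FPKM with miR-29a-3p and at 0.814 and 0.731 FPKM in controls. Treated libraries lay under controls for both genes, at 41.7% of the control mean for COL4A1 and 50.7% for COL4A2.

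On the log2(FPKM + 1) scale COL4A1 fell by 0.28 ± 0.054 (SE, limma adjusted p = 0.019) and COL4A2 by 0.35 ± 0.064 (SE, adjusted p = 0.017) in A549-labelled libraries. With a pseudocount of 0.1 the changes were -0.93 and -0.84 (adjusted p = 0.004 and 0.01). Each call was lost when single A549-labelled libraries were left out. COL4A1 lost it without miR-29a-3p 1 (adjusted p = 0.078), miR-29a-3p 2 (adjusted p = 0.051) or control 1 (adjusted p = 0.076). COL4A2 lost it without miR-29a-3p 2 (adjusted p = 0.064), control 1 (adjusted p = 0.075) or control 2 (adjusted p = 0.053).

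COL4A3 was at 0.247 and 0.259 FPKM with miR-29a-3p and at 0.236 and 0.196 FPKM in A549-labelled controls, with a log2 fold change of 0.04 (95% confidence interval -0.18 to 0.27, limma adjusted p = 0.79). COL4A4 was at 0.155 and 0.106 FPKM with miR-29a-3p and at 0.214 and 0.284 FPKM in controls, with a log2 fold change of -0.14 (95% confidence interval -0.33 to 0.04, limma adjusted p = 0.26). Its treated mean was 52.4% of the control mean, and with a pseudocount of 0.1 the log2 fold change was -0.60 (adjusted p = 0.1). Neither passed the test, and each value rests on an estimated 13 to 37 fragments. Of the 6 chains, 3 were called lower and 0 higher in A549-labelled libraries, where 16.0% of tested genes were called and 8.66% were called lower. By an unadjusted limma p under 0.05 the count of higher chains was also 0. Treated and control libraries did not overlap for 5 of the 6, as for 59.0% of tested genes.

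**Figure D3:**
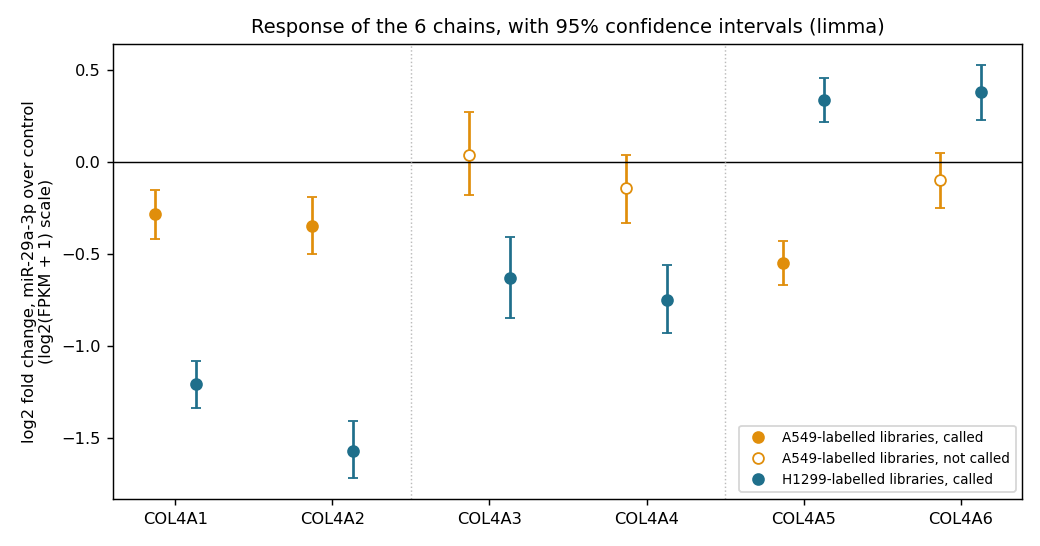
Log2 fold change of each chain, miR-29a-3p over control, on the log2(FPKM + 1) scale, with 95% confidence intervals from limma. Orange is A549-labelled, blue is H1299-labelled, filled points have an adjusted p under 0.05, and dotted lines separate the head-to-head pairs. COL4A5 lies at -0.55 in A549-labelled and at 0.34 in H1299-labelled libraries.

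The difference in response between the lines was tested directly, as A549-labelled minus H1299-labelled. COL4A5 moved in opposite directions, with a difference of -0.88 ± 0.070 on the log2 scale (SE, limma adjusted p = 0.00033). For COL4A6 the difference was -0.48 ± 0.088 (SE, adjusted p = 0.0067). Both held with a pseudocount of 0.1, at -0.98 and -0.52. All 6 chains passed this test, as did 37.3% of tested genes. COL4A1 to COL4A4 could be tested only because they are high in H1299-labelled libraries.

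For the low chains that difference depended on the scale. COL4A1 differed by 0.92 ± 0.077 (SE, limma adjusted p = 0.0004) with a pseudocount of 1 and by 0.33 (adjusted p = 0.15) with 0.1, and its treated means were 41.7% and 41.6% of the control means in A549-labelled and H1299-labelled libraries. COL4A4 differed by 0.60 (adjusted p = 0.0066) with a pseudocount of 1 and by 0.75 (adjusted p = 0.083) with 0.1. COL4A2 kept its call on both scales, with differences of 1.22 (adjusted p = 0.00028) and 0.77 (adjusted p = 0.018). COL4A3 did so too, with 0.67 (adjusted p = 0.0086) and 1.49 (adjusted p = 0.01). COL4A3 and COL4A4 were tested only because they are high in H1299-labelled controls, which enter this difference, and with no filter their adjusted p was 0.019 and 0.014. COL4A1 and COL4A2 reached 1 FPKM only in H1299-labelled libraries, which also enter this difference. With no filter their limma adjusted p was 0.001 and 0.00096.

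Without miR-29a-3p, every chain was lower in A549-labelled than in H1299-labelled controls. COL4A1 averaged 0.443 ± 0.050 FPKM in A549-labelled controls and 33.6 ± 0.23 FPKM in H1299-labelled controls (SD, n = 2 each), a ratio of 1.32%. COL4A2 averaged 0.772 ± 0.058 and 60.5 ± 0.45 FPKM in A549-labelled and H1299-labelled controls (SD, n = 2 each), a ratio of 1.28%. The gap was narrowest for COL4A5, at 7.40 ± 0.26 and 14.3 ± 0.41 FPKM (SD, n = 2 each), or 51.8%. COL4A6 stood at 17.3%, COL4A3 at 18.3% and COL4A4 at 14.9%. All 6 passed limma, with an adjusted p of 3.4e-08 for COL4A2 and 0.00019 for COL4A3, where 74.8% of tested genes were called and 29.8% were called lower. COL4A1 to COL4A4 reached 1 FPKM in H1299-labelled libraries alone, so they could be tested only because they are high there. The median of all tested genes in this comparison was 0.17, and 0.02 after libraries were rescaled to the median ratio.

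Across the 4 groups the chains took different orders. COL4A1, COL4A2 and COL4A4 were highest in H1299-labelled controls, then H1299-labelled miR-29a-3p, A549-labelled controls and A549-labelled miR-29a-3p. The step between the lowest groups did not pass for COL4A4 (limma adjusted p = 0.26). COL4A5 and COL4A6 were highest in H1299-labelled miR-29a-3p libraries, followed by H1299-labelled controls, A549-labelled controls and A549-labelled miR-29a-3p, and the step between the lowest groups did not pass for COL4A6 (adjusted p = 0.33). For COL4A3 only the step between the H1299-labelled groups passed. The lower steps were 0.17 on the log2 scale (adjusted p = 0.15) between H1299-labelled and A549-labelled miR-29a-3p and 0.04 (adjusted p = 0.79) between A549-labelled miR-29a-3p and controls.

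In H1299-labelled libraries the makeup of type IV collagen RNA differed between treated and control libraries beyond their spread. The 6 chains summed to 85.1 and 84.8 FPKM with miR-29a-3p and to 136 and 135 FPKM in controls. COL4A1 and COL4A2 together gave 40.2% and 39.2% of that sum with miR-29a-3p and 69.1% and 69.9% in controls. COL4A5 and COL4A6 gave 58.6% and 59.6% with miR-29a-3p and 28.6% and 28.2% in controls. In A549-labelled libraries COL4A5 and COL4A6 were the main pair in both groups, at 89.6% and 90.3% with miR-29a-3p and 87.3% in each control, and the sum was 9.81 and 9.27 FPKM with miR-29a-3p and 13.7 and 12.8 FPKM in controls. COL4A3 and COL4A4 gave between 1.13% and 4.10% of the sum in every library.

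**Figure D4:**
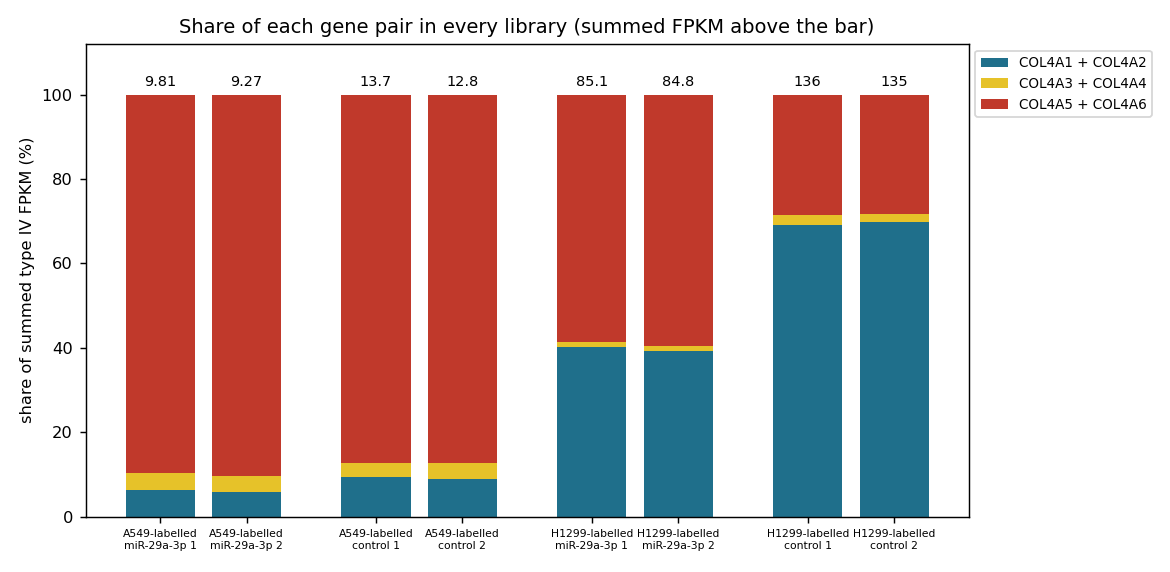
Share of each head-to-head gene pair in the summed type IV FPKM of every library, in percent, with the sum in FPKM above each bar. Blue is COL4A1 with COL4A2, yellow COL4A3 with COL4A4 and red COL4A5 with COL4A6. In H1299-labelled libraries the blue share is 40.2% and 39.2% with miR-29a-3p and 69.1% and 69.9% in controls.

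Partners of a pair moved in the same direction wherever both passed the test, but not always by the same amount. The ratio of COL4A1 to COL4A2 (FPKM, per length) was 0.69 and 0.73 with miR-29a-3p and 0.56 and 0.55 in H1299-labelled controls, higher in both treated libraries. The groups did not overlap, the difference in log2 ratio was 0.35, and an exact permutation test gave p = 0.333, the smallest that 2 against 2 libraries allow (two-sided). In A549-labelled libraries that ratio was 0.36 and 0.63 with miR-29a-3p and 0.59 and 0.56 in controls, which overlapped.

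The ratio of COL4A5 to COL4A6 was 0.58 and 0.57 with miR-29a-3p and 0.60 and 0.58 in H1299-labelled controls, a difference of -0.04 in log2 ratio (exact permutation p = 0.333, the smallest possible). In A549-labelled libraries it was 1.2 and 1.3 with miR-29a-3p and 1.7 and 1.8 in controls, without overlap, a difference of -0.51 (exact permutation p = 0.333). COL4A5 was the higher partner in A549-labelled and COL4A6 in H1299-labelled libraries. The ratio of COL4A3 to COL4A4 was 0.75 and 0.62 with miR-29a-3p and 0.75 and 0.65 in H1299-labelled controls, which overlapped (exact permutation p = 1, two-sided). In A549-labelled libraries both genes had too few fragments for the ratio to be read, at 1.6 and 2.4 with miR-29a-3p and 1.1 and 0.69 in controls.

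The sequence between the starts of each pair is given, whole or in part, because it lies before the starts of both members. RefSeq places the starts of COL4A1 and COL4A2 with 126 bases between them, those of COL4A3 and COL4A4 with 418 and those of COL4A5 and COL4A6 with 379, counted from the nearer of 2 COL4A6 starts. The stretch between COL4A1 and COL4A2 is printed whole, and for the other pairs the 250 bases before the COL4A3 and COL4A5 starts, all on the plus strand of GRCh38.p14. Capitals mark matches on either strand to the CCAAT box (CCAAT), to the GC box (letters GGGCGG) and to the TATA box (letters TATAAA), and no marked matches overlap.
COL4A1/COL4A2, chr13:110307158-110307283: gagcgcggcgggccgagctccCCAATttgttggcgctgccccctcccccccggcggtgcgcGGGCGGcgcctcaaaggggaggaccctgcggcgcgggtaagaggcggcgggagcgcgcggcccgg
COL4A3/COL4A4, chr2:227164374-227164623: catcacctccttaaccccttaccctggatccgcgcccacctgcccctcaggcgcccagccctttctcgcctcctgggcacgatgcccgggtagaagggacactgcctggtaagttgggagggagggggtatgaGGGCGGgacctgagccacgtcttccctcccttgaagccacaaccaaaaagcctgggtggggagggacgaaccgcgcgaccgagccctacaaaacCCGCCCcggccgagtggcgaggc
COL4A5/COL4A6, chrX:108439588-108439837: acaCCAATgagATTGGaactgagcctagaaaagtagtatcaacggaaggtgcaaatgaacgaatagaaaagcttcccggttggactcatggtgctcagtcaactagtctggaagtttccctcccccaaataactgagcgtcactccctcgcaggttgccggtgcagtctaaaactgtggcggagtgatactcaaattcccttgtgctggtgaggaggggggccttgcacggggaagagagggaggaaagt

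The COL4A1/COL4A2 stretch held 1 CCAAT and 1 GC box, the COL4A3/COL4A4 stretch 2 GC boxes and the COL4A5/COL4A6 stretch 2 CCAAT boxes, and none held a TATA box. Over 35116 RefSeq promoter windows, 250 bases before to 50 after a start, 34.6% held CCAAT, 45.0% the GC box and 11.5% the TATA box. The printed stretches are shorter than these windows, so the shares are not matched to them. In such windows the GC box matched 2 times for COL4A1, 1 for COL4A2, 2 for COL4A3 and 0 for COL4A4. CCAAT matched 2 times for COL4A5 and 3 times at the nearer COL4A6 start. The GC content was 80.2% for COL4A1/COL4A2, 66.4% for COL4A3/COL4A4 and 51.2% for COL4A5/COL4A6. In GENCODE release 29 COL4A1 and COL4A2 overlap on opposite strands by gene span and share 0 exon bases.

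The genes most like COL4A1 and COL4A5 were ranked by Pearson's r of log2(FPKM + 1) over the 8 libraries, among 7747 tested genes whose mean reached 5 FPKM in any group. This is a description, since the 8 libraries fall into 4 groups and the lines set much of the pattern. LAMA5, the laminin chain of mature epithelial and vascular basement membranes, was most like COL4A1 (r = 0.9997). It averaged 65.9 ± 0.66 FPKM with miR-29a-3p and 111 ± 2.5 FPKM in H1299-labelled controls, and 14.3 ± 0.077 and 15.6 ± 1.1 FPKM with miR-29a-3p and in controls labelled A549 (SD, n = 2 each). EPHB2, RSPO3, SYNPO and DOCK5 followed (r = 0.9995 to 0.9997), and COL4A2 ranked 10 (r = 0.9991). The genes most like COL4A5 were SH3PXD2B, an adaptor of invadopodia, and DKK1, a secreted Wnt inhibitor, with r = 0.9983 and 0.9971, then ORMDL2, CDKN1A and AC140479.4. DKK1 was at 6.06 and 6.25 FPKM with miR-29a-3p and at 12.7 and 13.4 FPKM in A549-labelled controls, and at 87.5 and 88.3 FPKM with miR-29a-3p and 56.6 and 62.0 FPKM in H1299-labelled controls. DKK1 was thus lower with miR-29a-3p in A549-labelled libraries and higher in H1299-labelled ones. It shares these directions with COL4A5, on whose pattern over the same libraries it was picked. COL4A6 ranked 118 for COL4A5 (r = 0.9648).

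Genes that mature, cross-link, bind or degrade type IV collagen were described beside the chains. Of 60 tested genes in 5 lists, 4 were called higher and 25 lower in A549-labelled libraries, and 18 higher and 18 lower in H1299-labelled libraries. Over all tested genes, 7.30% were called higher and 8.66% lower in A549-labelled libraries, and 25.1% and 24.8% in H1299-labelled ones. The lists were chosen with earlier results of these data known, so the counts beside these shares are no test of the lists. The genes named here are the 4 with the largest called change in each line, and PXDN, ITGB1 and ITGAV.

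Of 20 tested genes of collagen maturation and export, 3 were higher and 6 lower in A549-labelled libraries (median log2 fold change -0.03), and 6 were higher and 6 lower in H1299-labelled ones (median 0.00). SERPINH1, the chaperone of folded collagen helices, averaged 6.57 ± 1.3 FPKM with miR-29a-3p and 19.1 ± 0.22 FPKM in A549-labelled controls, and 4.68 ± 0.97 and 11.8 ± 1.0 FPKM with miR-29a-3p and in controls labelled H1299 (SD, n = 2 each). It fell by 1.42 (limma adjusted p = 0.0028) in A549-labelled libraries and fell by 1.18 (adjusted p = 0.001) in H1299-labelled libraries, on the log2 scale. It was low in the treated libraries of both labels, also where COL4A5 and COL4A6 were high. Of 5 network cross-linking genes, 4 were lower and 0 higher in A549-labelled libraries (median -0.75), and 2 were lower and 1 higher in H1299-labelled ones (median 0.08). LOXL2, which cross-links the ends of type IV collagen, averaged 6.09 ± 0.24 FPKM with miR-29a-3p and 23.6 ± 0.099 FPKM in A549-labelled controls, and 26.3 ± 1.3 and 105 ± 3.4 FPKM with miR-29a-3p and in controls labelled H1299 (SD, n = 2 each). It fell by 1.79 (limma adjusted p = 4.9e-05) in A549-labelled libraries and fell by 1.96 (adjusted p = 9.8e-06) in H1299-labelled libraries. PXDN, the peroxidase that forms the sulfilimine bonds of the network and was picked after its values were seen, fell by 0.75 (adjusted p = 0.001) in A549-labelled libraries and fell by 0.19 (adjusted p = 0.034) in H1299-labelled ones.

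Of 16 basement membrane partners, 1 was higher and 8 lower in A549-labelled libraries (median -0.22), and 4 were higher and 6 lower in H1299-labelled ones (median -0.08). NID1, a nidogen that links type IV collagen to laminin, averaged 2.71 ± 0.12 FPKM with miR-29a-3p and 9.11 ± 0.34 FPKM in A549-labelled controls (SD, n = 2 each), and fell by 1.45 on the log2 scale (limma adjusted p = 0.00015). In H1299-labelled libraries, at 1.66 ± 0.050 FPKM with miR-29a-3p and 1.36 ± 0.0070 FPKM in controls (SD, n = 2 each), it rose by 0.17 (adjusted p = 0.048). The difference between lines was -1.62 (adjusted p = 0.0001).

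Of 7 type IV collagen receptors, 0 were higher and 2 lower in A549-labelled libraries (median -0.02), and 2 were higher and 2 lower in H1299-labelled ones (median 0.51). The 0.51 is the value of ITGAV, which was not called (limma adjusted p = 0.058). ITGB3, an integrin beta chain, averaged 22.0 ± 1.4 FPKM with miR-29a-3p and 5.58 ± 0.27 FPKM in H1299-labelled controls (SD, n = 2 each), and rose by 1.81 (limma adjusted p = 2e-05). In A549-labelled libraries it averaged 5.95 ± 0.44 and 4.85 ± 0.40 FPKM with miR-29a-3p and in controls (SD, n = 2 each, adjusted p = 0.088). ITGB1, also an integrin beta chain and picked after its values were seen, fell under both labels. It averaged 30.8 ± 4.2 and 66.1 ± 6.0 FPKM with miR-29a-3p and in controls labelled A549 (SD, n = 2 each). The values labelled H1299 were 114 ± 16 and 218 ± 22 FPKM (SD, n = 2 each). Its log2 fold changes were -1.08 (limma adjusted p = 0.005) and -0.93 (adjusted p = 0.0019) in A549-labelled and H1299-labelled libraries. Of 12 proteases and inhibitors, 0 were higher and 5 lower in A549-labelled libraries (median -0.29), and 5 were higher and 2 lower in H1299-labelled ones (median -0.02). MMP14, a membrane-bound protease, averaged 12.9 ± 1.1 FPKM with miR-29a-3p and 38.7 ± 0.38 FPKM in A549-labelled controls (SD, n = 2 each), and fell by 1.52 (limma adjusted p = 0.00022). In H1299-labelled libraries it averaged 0.875 ± 0.043 and 1.06 ± 0.098 FPKM with miR-29a-3p and in controls (SD, n = 2 each). Its log2 fold change there was -0.13 (adjusted p = 0.16), on a scale that compresses folds of genes this low. The difference between lines was -1.38 (adjusted p = 0.00025) and carries the same limit. MMP7, a secreted protease that cleaves basement membrane proteins, averaged 9.92 ± 0.062 FPKM with miR-29a-3p and 2.67 ± 0.16 FPKM in H1299-labelled controls (SD, n = 2 each), and rose by 1.58 (limma adjusted p = 2e-05). In A549-labelled libraries MMP7 averaged 0.343 ± 0.064 and 0.524 ± 0.058 FPKM with miR-29a-3p and in controls (SD, n = 2 each). Its log2 fold change there was -0.18 (adjusted p = 0.13), and this fold is compressed too. The difference between lines was -1.76 (adjusted p = 0.00012), with that limit.

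**Figure D5:**
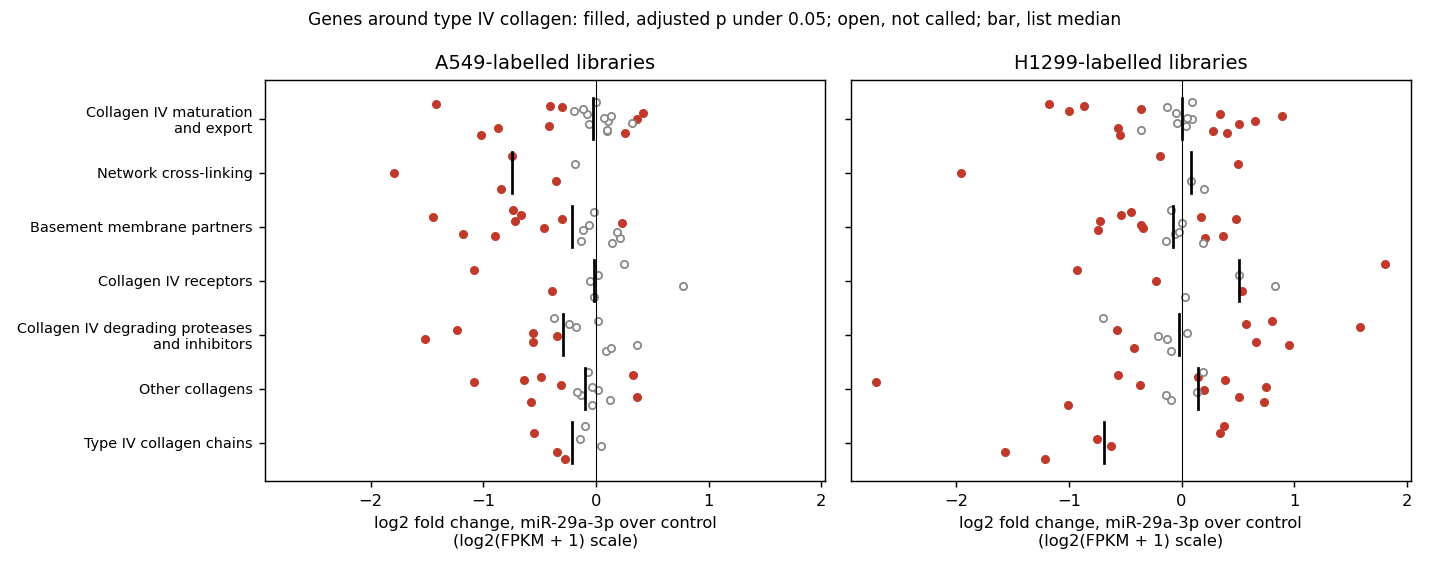
Log2 fold change, miR-29a-3p over control, of each tested gene in the lists around type IV collagen, of the other collagens and of the 6 chains. Points are genes, filled where the adjusted p is under 0.05, and black bars are list medians, with A549-labelled libraries on the left and H1299-labelled ones on the right. The median of the chains is -0.21 in A549-labelled and -0.69 in H1299-labelled libraries with a pseudocount of 1, and -0.61 and -1.30 with 0.1. The -0.69 rests on COL4A3 and COL4A4, tested only because they are high in H1299-labelled controls.

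Among the other collagens, 14 of 36 were tested. In A549-labelled libraries 2 were called higher and 5 lower (median -0.10), and in H1299-labelled libraries 6 were higher and 4 lower (median 0.15). Of all tested genes, 7.30% were called higher and 8.66% lower in A549-labelled libraries, and 25.1% and 24.8% in H1299-labelled ones. Single genes lay far from these medians, from -1.08 (COL5A2) to 0.36 (COL17A1) in A549-labelled libraries. In H1299-labelled libraries they ran from -2.71 (COL5A2) to 0.75 (COL27A1). COL18A1 is counted here and among the basement membrane partners. The 6 type IV chains had medians of -0.21 and -0.69 in A549-labelled and H1299-labelled libraries, and whether they stand apart from other collagens was not tested. The -0.69 rests on COL4A3 and COL4A4, which passed the filter on low values only through H1299-labelled controls. Medians of low genes depend on the pseudocount. With 0.1 they were -0.61 and -1.30 for the chains, and -0.30 and 0.20 for the other collagens, in A549-labelled and H1299-labelled libraries. In A549-labelled libraries it moved the proteases and inhibitors to -0.44. In H1299-labelled libraries it moved the cross-linking genes to 0.39, the basement membrane partners to -0.23 and the proteases and inhibitors to 0.05, the opposite sign.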

How the data were processed

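RNA of 8 libraries was sequenced, 2 for each line and transfection. The authors deposited FPKM values per gene, as column names in the deposited table show, and their processing notes list StringTie and the GRCh38 build. Tool versions, aligner, annotation and strand setting were not found in those notes or in the labels' protocols. A gene listed for only 1 line was set to 0 in the other.

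The 14635 genes reaching 1 FPKM in 2 or more libraries were tested with limma (3.58.1, R 4.3.3) on log2(FPKM + 1), with 4 group means, a variance trend and Benjamini-Hochberg adjustment over all of them. Residual degrees of freedom were 4 and prior 2.36. The fit was tested on simulated data, and no result here draws on that test. Fragment totals were estimated from the most frequent product of FPKM and GENCODE 29 exon length below 0.2 FPKM. Fragments of a gene were then estimated from its FPKM, this total and the length of all its annotated exons. If the FPKM were scaled by a shorter transcript, they would be fewer. Between 38.2% and 42.1% of values then came out whole within 0.02, too few for a count test. No label says that libraries of a group were separate cultures, so the p-values cover a spread that may be technical.

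Named genes were the 6 chains, the 5 genes most like COL4A1 and like COL4A5, and the 4 list genes with the largest called change per line. PXDN, ITGB1, ITGAV and the lowest and highest of the other collagens were added after their values were seen. Members and lists were chosen with earlier results of these data known. Alternatives were another pseudocount, filter, scaling and variance model, leaving out each library, a replicate block and each line alone, and, chosen after seeing the data, list medians with a pseudocount of 0.1. MicroRNA and promoter sequences came from RefSeq (GRCh38.p14), where miR-29a-3p and all 6 chains were found, and target sites from GENCODE 29.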

Additional observations from a re-analysis of the deposited data

Results flagged for a closer look

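The response to miR-29a-3p differed between the A549-labelled and the H1299-labelled libraries for each chain at a pseudocount of 1, by limma's test of the difference (log2, A549-labelled minus H1299-labelled). The difference was -0.88 for COL4A5 (adjusted p = 0.00033) and -0.48 for COL4A6 (adjusted p = 0.0067). It was 0.92 for COL4A1 (adjusted p = 0.0004), 1.22 for COL4A2 (adjusted p = 0.00028), 0.67 for COL4A3 (adjusted p = 0.0086) and 0.60 for COL4A4 (adjusted p = 0.0066). Of all tested genes, 37.3% were called in this test. With a pseudocount of 0.1 the difference was 0.33 for COL4A1 (adjusted p = 0.15) and 0.75 for COL4A4 (adjusted p = 0.083). The treated means of COL4A1 were 41.7% and 41.6% of the control means in A549-labelled and H1299-labelled libraries. COL4A3 and COL4A4 passed the filter on low values only through H1299-labelled controls, and with no filter their adjusted p was 0.019 and 0.014. COL4A1 and COL4A2 passed it only through H1299-labelled libraries, and with no filter their adjusted p was 0.001 and 0.00096. Groups of 2 libraries were too small for a search for single libraries that stand apart.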

How the results depend on the processing

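In H1299-labelled libraries, each of the 6 chains kept its direction and its call under all alternatives run for it (88 values), as did COL4A5 in A549-labelled libraries. In A549-labelled libraries no chain changed direction, and 9 of 88 values lost a call, all of COL4A1 or COL4A2. COL4A1 was at -0.28 with a replicate block (adjusted p = 0.072) and at -0.28 with the line fitted alone (adjusted p = 0.061), and COL4A2 at -0.35 with the line alone (adjusted p = 0.071). Leaving out single A549-labelled libraries gave -0.32 to -0.25 for COL4A1 and -0.41 to -0.28 for COL4A2. COL4A1 and COL4A4 lost the call of a difference between lines with a pseudocount of 0.1. COL4A3 and COL4A4 have no value at a mean of at least 5 FPKM.

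Called genes in A549-labelled libraries numbered 2336, 1261 with the replicate block, 1071 with the line alone and 1066 to 1937 without single libraries. With a mean of at least 5 FPKM, which left 6085 genes to test, 3773 in place of 7312 were called in H1299-labelled libraries, 2984 in place of 5464 for the difference and 4923 in place of 10941 between controls. Replicate numbers are shared across groups by label only. The correlation of same-numbered deviations was 0.00 in A549-labelled and -0.04 in H1299-labelled libraries. The block changed no other call of a chain. Depth limits COL4A1, COL4A3 and COL4A4 in A549-labelled libraries, where each rests on under 100 estimated fragments. It also limits COL4A2 there, at an estimated 79 to 200 fragments. These estimates take the length of all annotated exons of a gene, and with a shorter transcript they would be lower. Ratios of partners cannot reach a p under 0.333 here. The cause of the lost calls was not tested.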
